A study of Mus musculus with 16 samples.

Results

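Olfr987 to Olfr1140 are odorant receptor genes that lie along a stretch of mouse chromosome 2. The 98 genes described here were chosen by symbol number, from 104 receptor symbols in that range, with Olfr1008, Olfr1048, Olfr1049, Olfr1051, Olfr1053, Olfr1110 and pseudogenes left out. They stand among 1080 receptors and 22206 probe sets on the array, and each had 1 probe set. The study used mice that carry S100a5-tauGFP, in which the promoter of S100a5, an activity-dependent calcium-binding protein gene, drives a green fluorescent reporter in olfactory sensory neurons. All 24 mice, males and females aged 7 to 12 weeks, stayed 40 h in chambers with clean air, and after 26 h they received pulses of 10 s every 20 min, either of the ketone 2-hexanone (odor) or of filtered air (vehicle). Olfactory mucosa of 3 mice was pooled, dissociated and sorted, and each pool gave a GFP+ and a GFP- sample. With 4 pools per treatment, the 16 Clariom S arrays formed the groups odor GFP+, odor GFP-, vehicle GFP+ and vehicle GFP-, with 4 arrays each.

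Odorant receptors are G protein-coupled receptors in the cilia of olfactory sensory neurons, where they act through the olfactory G protein and adenylyl cyclase to open a cyclic nucleotide-gated channel. A mature neuron normally transcribes a single receptor gene from a single allele, so a receptor transcript measured in a sorted pool stands for the neurons that chose that receptor. Receptors of the same family, here given by their MOR names, share much of their protein sequence and often lie side by side in the genome. In these bulk samples, fewer neurons with a receptor cannot be told apart from less receptor RNA per neuron. The values are deposited log2 signals that reach 19.81, above the 16 bits of a scanner, so an unstated transformation acts on every difference and fold below.

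The sorted fractions matched their labels in neuronal and other markers. S100a5 was higher in GFP+ cells, by 1.61 in odor pools and 1.38 in vehicle pools on the log2 scale, and the mean level of 9 mature neuron markers lay between 17.38 and 17.97 on every array. The GFP- samples also held RNA of other cells. All 6 immune markers were lower in GFP+ cells (median differences -8.10 in odor and -8.32 in vehicle pools), with 4 of the 6 under background on all 4 odor GFP+ arrays and 5 of 6 on all 4 vehicle GFP+ arrays. The 5 immature neuron markers were all lower too (medians -2.89 and -2.92), as were 4 of 5 sustentacular markers, both erythroid markers measured and 1 of 4 basal markers measured. The replicate 1 arrays stood apart, and the median log2 signal of the 98 receptors was highest on replicate 1 in each group (8.41 against 7.72 to 8.07 in odor GFP+, 7.37 against 6.84 to 7.22 in odor GFP-, 8.82 against 7.98 to 8.18 in vehicle GFP+, and 7.96 against 6.74 to 7.06 in vehicle GFP-). The part of these differences between samples in the receptor values was not tested, and counts without replicate 1 are given beside the main ones.

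The comparison of GFP+ with GFP- cells asks which receptors were carried by neurons with an active reporter. More of the 98 receptors were higher than lower in GFP+ cells, and the lower ones had the larger differences (medians of -4.69 in odor and -4.54 in vehicle pools, beside 2.63 and 2.57 for the higher ones). In odor pools 49 of 98 were higher (50%, against 5.29% of all probe sets) and 14 were lower (14.3%, against 9.56%) by limma at a Benjamini-Hochberg adjusted p below 0.05. In vehicle pools 52 were higher (53.1%, against 5.83%) and 15 were lower (15.3%, against 9.86%). The median difference was 1.22 in odor and 1.31 in vehicle pools, beside 0.14 over all probe sets in both. Without both replicate 1 pools the counts were 48 higher and 14 lower in odor and 49 and 15 in vehicle pools.

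The remaining receptors of the array gave a smaller share of higher calls. Of the other 982 receptors, 342 were higher and 221 lower in odor pools (median 0.42), and 337 and 224 in vehicle pools (median 0.36). The 136 receptors numbered Olfr1141 to Olfr1318, which follow on chromosome 2, gave 38 higher and 34 lower in odor pools and 36 and 39 in vehicle pools, with medians of 0.13 and 0.11. These shares are a description, and no test of the lists against each other was made. Centring each array on its own median moved the median of all probe sets to 0.49 in odor and 0.50 in vehicle pools, and the counts for the 98 receptors to 65 higher and 13 lower and to 64 and 15. Centring on the median of the 1080 receptors gave 44 higher and 20 lower in odor pools, and 43 higher and 15 lower in vehicle pools.

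**Figure D1:**
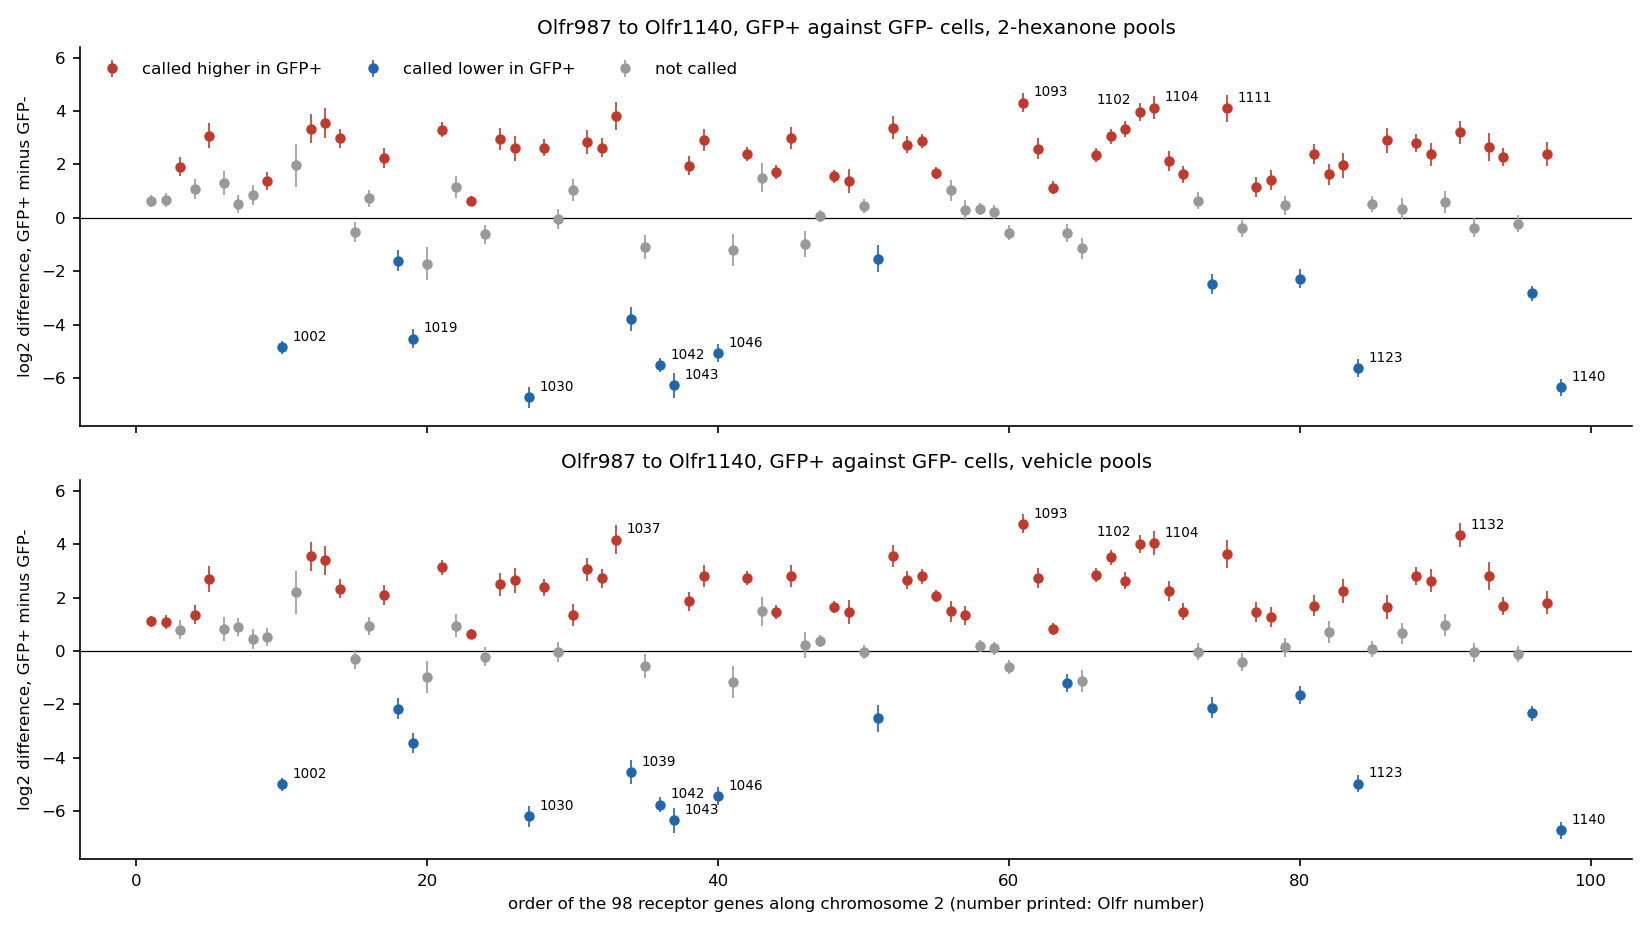
The log2 difference of GFP+ minus GFP- cells (y axis, points with standard errors, 4 arrays a group) is drawn for the 98 receptors in their order along chromosome 2 (x axis), for 2-hexanone pools above and vehicle pools below. Red points were called higher and blue points lower in GFP+ cells by limma; the 14 lower in odor pools lie scattered among the 49 higher, and in vehicle pools the 15 lower among the 52 higher.

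Most calls were the same in both treatments. In both treatments 46 receptors were higher, 14 lower and 28 not called. How many of all probe sets were called alike in both treatments was not counted, so this does not set the 98 apart. A further 6 (Olfr987, Olfr988, Olfr993, Olfr1033, Olfr1085 and Olfr1086) were called higher in vehicle pools alone and 3 (Olfr992, Olfr1000 and Olfr1121) in odor pools alone, while Olfr1097 was called lower in vehicle pools alone. None was called in opposite directions, and the change of the sort difference with odor was called for none of these 10 receptors. Some of these calls by limma ended when 1 pool was left out, which also leaves fewer arrays. Without vehicle replicate 1, 2 or 3 the adjusted p of Olfr1033 was 0.119, 0.0627 and 0.105. Its difference was 1.12, 1.48 and 1.16 there, beside 1.35 with all pools. Without vehicle replicate 1, 3 or 4 the adjusted p of Olfr1097 was 0.0987, 0.0790 and 0.0902. Olfr993 (0.0879 and 0.114 without vehicle replicate 2 or 4), Olfr1085 (0.0951 without 2) and Olfr1086 (0.0538 and 0.106 without 1 or 3) also lost their calls. In odor pools the call of Olfr1000 ended without replicate 1, 2 or 4 (adjusted p = 0.0531, 0.0762 and 0.0543) and that of Olfr1121 without replicate 1 (0.0635). With the pool as a block, Olfr993 (adjusted p = 0.0342 with a random block), Olfr1085 (0.0444 random, 0.00538 fixed) and Olfr1033 (0.0290 fixed) were called higher in odor pools too. Centring each array on its median called Olfr987, Olfr988, Olfr993, Olfr1033 and Olfr1085 in odor pools and Olfr992, Olfr1000 and Olfr1121 in vehicle pools as well. Centring on the median of all receptors instead ended the vehicle calls of Olfr988, Olfr993, Olfr1033, Olfr1085 and Olfr1086. Their adjusted p by limma was then 0.0797, 0.0879, 0.101, 0.0981 and 0.0733. With arrays raised to the background floor, the odor differences of Olfr992 and Olfr1121 became 0.47 and 0.015 (adjusted p = 0.308 and 0.961) and the vehicle difference of Olfr993 became -0.10 (0.711). Every array of Olfr1121 in odor and of Olfr993 in vehicle pools lay under its floor, so 0.015 and -0.10 are differences between floors alone. Within single pools, 55 of the 98 receptors were higher in GFP+ cells in all 8 pools, 15 were lower in all 8, and 28 went both ways. This count was not made for other probe sets. Of all 22206 probe sets, 14338 had a positive difference in odor and 14350 in vehicle pools, beside 71 and 70 of the 98.

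Both directions also differed in the range of the signal they spanned. An array's background floor was taken as the highest of 23 antigenomic control bins, which lay between 6.16 and 7.33. The highest floor was that of odor GFP+ replicate 1 and the lowest that of vehicle GFP+ replicate 1. Counts under the floor are therefore not alike between treatments. Among receptors called higher, 43 of 49 in odor and 45 of 52 in vehicle pools were above the floor on all 4 GFP+ arrays. Among those called lower, 12 of 14 in odor and 13 of 15 in vehicle pools were above it on all 4 GFP- arrays, and 11 of 14 and 7 of 15 were under it on all 4 GFP+ arrays. A log2 difference beyond 4 in size was reached by 8 of the lower receptors in each treatment, and by 3 of the higher ones in odor and 4 in vehicle pools. The 4 GFP+ arrays exceeded each of the 4 GFP- arrays for 48 of 49 higher receptors in odor and 48 of 52 in vehicle pools. The GFP+ arrays lay wholly below for 13 of 14 lower receptors in odor and 14 of 15 in vehicle pools. These receptors were called from the same arrays, so the separation adds no support to the calls. Its share over all probe sets was not counted.

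**Figure D2:**
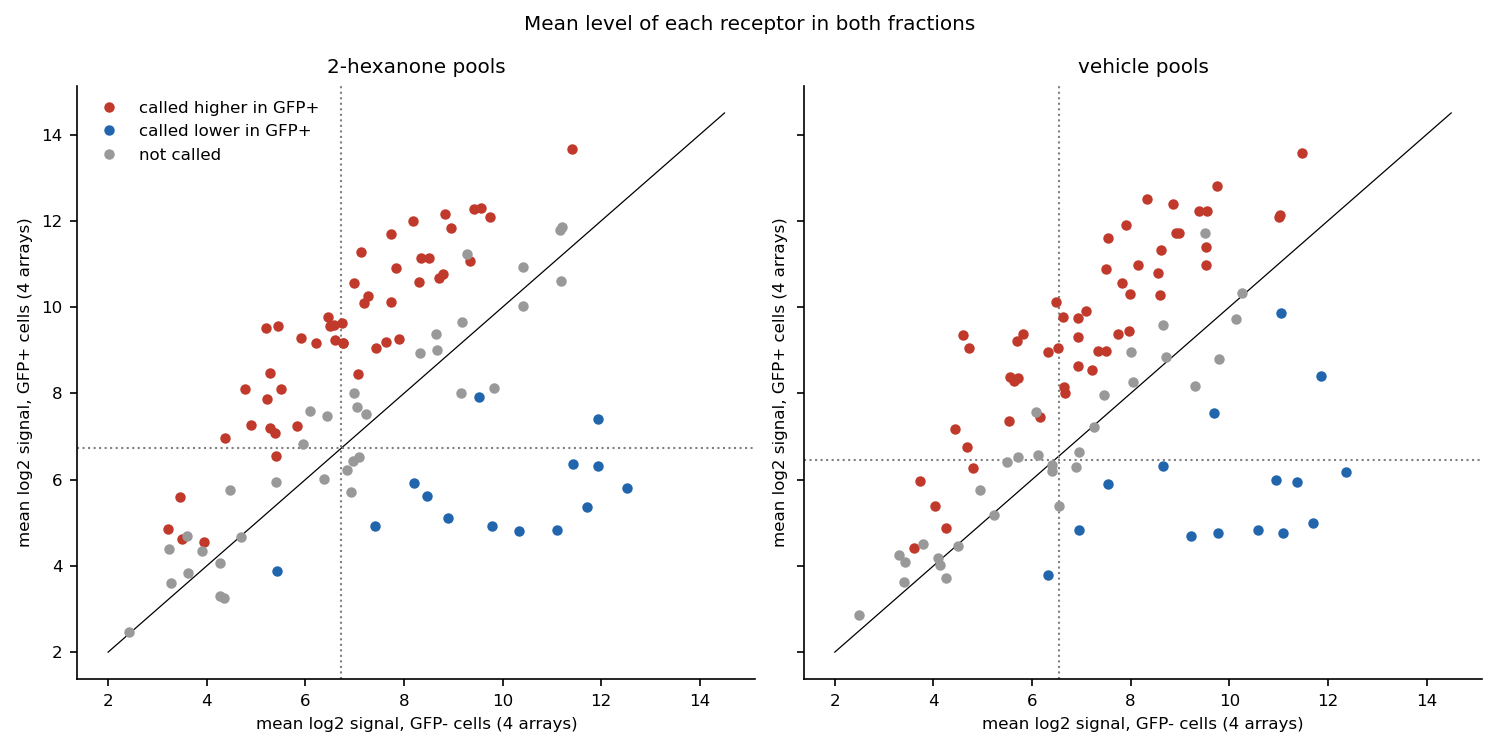
Each point is a receptor, with its mean log2 signal over 4 GFP- arrays on the x axis and over 4 GFP+ arrays on the y axis, for 2-hexanone pools on the left and vehicle pools on the right; dotted lines are the mean background floors and the diagonal marks equal levels. Most points called lower in GFP+ cells (blue; 11 of 14 in odor and 7 of 15 in vehicle pools on every array) lie under the horizontal floor line, while most called higher (red) lie above it.

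Olfr1093, of family MOR179, had the highest deposited log2 difference in both treatments, a rank that rests on GFP- signals under background. Its log2 signals were 9.93, 9.62, 8.81 and 9.67 in odor GFP+ samples, against 5.57, 4.49, 5.99 and 4.74 in odor GFP- samples. In vehicle they were 9.36, 10.13, 8.81 and 9.15 in GFP+ samples, against 5.11, 4.33, 4.89 and 4.07 in GFP- samples. All GFP+ arrays were above the background floor and all GFP- arrays under it, with no overlap. The difference was 4.31 ± 0.35 in odor and 4.76 ± 0.35 in vehicle pools (SE, n = 4; limma, adjusted p = 4.83e-08 and 1.43e-08), and against the floor Olfr1093 was at least 6.93-fold and 7.00-fold higher. These bounds lie below the measured folds of Olfr1037 and Olfr1102 given further on.

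Olfr1140, of family MOR177 and the last of the 98 along the chromosome, had the most negative deposited difference in vehicle pools, while in odor pools Olfr1030 did. Its log2 signals were 4.52, 5.52, 5.95 and 5.46 in odor GFP+ samples, against 11.45, 12.30, 11.92 and 11.18 in odor GFP- samples. In vehicle they were 5.10, 4.27, 5.47 and 5.10 in GFP+ samples, against 11.74, 11.40, 12.00 and 11.69 in GFP- samples. Every GFP+ array was under the floor and every GFP- array far above it. The difference was -6.35 ± 0.31 in odor and -6.72 ± 0.31 in vehicle pools (SE, n = 4; limma, adjusted p = 7.12e-11 and 5.30e-11), or at least 31.6-fold and 38.0-fold lower in GFP+ cells.

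The sequence before the start of receptors at both ends is shown, because factors of receptor choice are known to bind near the start of these genes. The windows are the 250 bases before the annotated start, from RefSeq on GRCm38.p6, in the direction of the gene. Olfr1093 (chr2:86782295-86782544, plus strand) and Olfr1037 (chr2:86085855-86086104, minus strand) were higher in GFP+ cells, and Olfr1140 (chr2:87745911-87746160, plus strand) and Olfr1030 (chr2:85979062-85979311, plus strand) were lower. Olfr1037 and Olfr1030 were picked for this after their values were seen. Capitals mark matches on either strand to TAATNA, a homeodomain core of the kind bound by Lhx2, or to CCCNNGGG, the core of the Ebf site.
Olfr1093: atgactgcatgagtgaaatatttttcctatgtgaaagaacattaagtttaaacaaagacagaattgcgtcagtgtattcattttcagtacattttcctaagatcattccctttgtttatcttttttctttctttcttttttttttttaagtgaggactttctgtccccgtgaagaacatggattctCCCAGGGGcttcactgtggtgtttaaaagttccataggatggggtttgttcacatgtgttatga
Olfr1037: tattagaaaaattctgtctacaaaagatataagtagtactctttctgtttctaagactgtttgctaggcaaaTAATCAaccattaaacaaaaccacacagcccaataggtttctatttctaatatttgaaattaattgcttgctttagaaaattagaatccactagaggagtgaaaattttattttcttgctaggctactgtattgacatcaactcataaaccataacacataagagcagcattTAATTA
Olfr1140: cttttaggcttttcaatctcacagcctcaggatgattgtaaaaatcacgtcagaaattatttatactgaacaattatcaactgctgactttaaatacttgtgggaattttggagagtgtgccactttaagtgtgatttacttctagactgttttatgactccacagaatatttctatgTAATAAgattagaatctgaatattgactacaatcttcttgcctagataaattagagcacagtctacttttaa
Olfr1030: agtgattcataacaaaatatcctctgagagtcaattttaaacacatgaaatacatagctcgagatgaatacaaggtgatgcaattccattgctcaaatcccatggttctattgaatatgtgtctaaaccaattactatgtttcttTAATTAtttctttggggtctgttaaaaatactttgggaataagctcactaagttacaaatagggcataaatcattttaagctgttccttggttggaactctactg
The Olfr1093 window held the CCCNNGGG core once and no TAATNA. The Olfr1037 window held TAATNA at 2 places, and those of Olfr1140 and Olfr1030 held it once each. Of the 74 receptors with a window in the table, 67.6% held TAATNA, beside 64.0% of the windows of all receptors and 24.3% of all windows. The share was 69.0% among 42 windows of receptors called higher in vehicle pools. It was 62.5% among 8 of those called lower and 66.7% among 24 of those not called. CCCNNGGG stood in 2.70% of the 74 windows, 2.75% of the windows of all receptors and 11.8% of all windows. In 52 of the 74 the annotated start is the start codon, so those windows lie next to the coding sequence and not at a transcript start. Of the other 22, 9.09% held CCCNNGGG and 72.7% TAATNA, beside 7.34% and 66.8% of 259 such windows of all receptors. These shares were not counted for such windows of all genes. Among the 22, TAATNA stood in 61.5% of 13 windows of receptors called higher and in 100% of 3 called lower.

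Several other receptors were far higher in GFP+ cells in both treatments. Olfr1037 was measured above background on all 16 arrays, at 12.60, 12.12, 11.74 and 11.56 in odor GFP+ samples, against 9.29, 8.50, 7.85 and 7.09 in odor GFP- samples. In vehicle it was at 13.31, 12.53, 12.11 and 12.08 in GFP+ samples, against 9.76, 8.30, 8.69 and 6.60 in GFP- samples. The groups did not overlap, and Olfr1037 was 14.1-fold higher in odor (3.82 ± 0.53 SE, adjusted p = 3.38e-05 by limma) and 18.0-fold higher in vehicle pools (4.17 ± 0.53, adjusted p = 1.21e-05).

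Olfr1102, of family MOR179, varied little between the GFP+ samples of vehicle pools. It averaged 11.69 ± 0.48 in odor GFP+ and 7.73 ± 0.64 in odor GFP- samples, and 11.91 ± 0.15 in vehicle GFP+ and 7.91 ± 0.71 in vehicle GFP- samples (SD, n = 4 each). That made it 15.56-fold and 15.96-fold higher in GFP+ cells (adjusted p = 9.00e-08 and 8.43e-08 by limma). Olfr1104, its neighbour on the chromosome from family MOR207, had differences of 4.13 ± 0.45 in odor and 4.04 ± 0.45 in vehicle pools, with 3 of 4 GFP- arrays above the floor in each treatment. Olfr1009 (MOR175) was 10.1-fold higher in odor (3.34 ± 0.54) and 11.6-fold higher in vehicle pools (3.54 ± 0.54), and was above background on every array.

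Others among the most positive differences rest on GFP- signals near or under background. Olfr1132 (MOR177) averaged 8.47 ± 0.70 in odor GFP+ and 5.27 ± 0.48 in odor GFP- samples, and 9.06 ± 0.70 in vehicle GFP+ and 4.72 ± 0.97 in vehicle GFP- samples (SD, n = 4 each). It was at least 3.38-fold higher in odor and at least 5.66-fold higher in vehicle pools. Olfr1100 (MOR206) was at least 7.15-fold and 6.32-fold higher by the same bound. Olfr1111 (MOR181) was at least 7.14-fold higher in odor pools, with 0 of 4 GFP- arrays above the floor, and its difference in vehicle pools was 3.63 ± 0.51, with 2 of 4 above it. Olfr1079 (MOR189) gave 3.37 ± 0.42 and 3.55 ± 0.42, and Olfr1012 (MOR213) gave 3.55 ± 0.56 and 3.39 ± 0.56. Olfr1101 (MOR179) was at least 2.62-fold higher in odor pools, and gave 2.64 ± 0.31 in vehicle pools, or 1.71 with the dim arrays raised to the floor. Olfr1022 (MOR196) gave 3.31 ± 0.28 and 3.14 ± 0.28. All of these passed in both treatments (adjusted p up to 0.000199 by limma).

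Receptors that were lower in GFP+ cells included several with high GFP- signals. Olfr1030 (MOR196) had log2 signals of 7.13, 4.97, 4.87 and 6.24 in odor GFP+ samples, against 12.49, 12.52, 12.70 and 12.41 in odor GFP- samples. In vehicle it had 6.52, 6.63, 6.03 and 5.49 in GFP+ samples, against 12.92, 12.11, 12.39 and 12.03 in GFP- samples. The GFP- samples were high and close together, while 4 of 4 odor and 2 of 4 vehicle GFP+ arrays were under the floor. In replicate 1 the odor GFP+ signal (7.13) lay under its floor (7.33), and the vehicle GFP+ signal (6.52) above its floor (6.16). Olfr1030 was at least 55.7-fold lower in odor pools (-6.73 ± 0.39 SE, adjusted p = 6.51e-10 by limma), and its difference in vehicle pools was -6.20 ± 0.39 (adjusted p = 2.04e-09), or -5.76 with the dim arrays raised to the floor.

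Olfr1002 (MOR175) gave the lowest standard error of the strongly lower receptors. It was at 4.92 ± 0.32 in odor GFP+ and 9.78 ± 0.25 in odor GFP- samples, and at 4.76 ± 0.29 in vehicle GFP+ and 9.76 ± 0.43 in vehicle GFP- samples (SD, n = 4 each). It was at least 8.28-fold and 9.88-fold lower (differences -4.86 ± 0.23 and -5.00 ± 0.23). Olfr1046 (MOR194) was at least 26.1-fold lower in odor pools (-5.08 ± 0.34) and gave -5.43 ± 0.34 in vehicle pools, and Olfr1123 (MOR264) gave -5.63 ± 0.34 and -4.97 ± 0.34. For Olfr1123, 1 of 4 odor and 2 of 4 vehicle GFP+ arrays were above the floor.

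Olfr1019 (MOR180), known in mice as a receptor for the predator odor trimethylthiazoline, was lower in GFP+ cells but still above background on all 16 arrays. It had 8.23, 7.64, 7.27 and 6.49 in odor GFP+ samples, against 11.89, 12.45, 11.78 and 11.60 in odor GFP- samples. In vehicle it had 9.43, 8.10, 8.30 and 7.81 in GFP+ samples, against 12.43, 11.98, 11.82 and 11.19 in GFP- samples. No arrays of the fractions overlapped, and Olfr1019 was 23.0-fold lower in odor (-4.53 ± 0.37 SE, adjusted p = 5.06e-08 by limma) and 10.9-fold lower in vehicle pools (-3.45 ± 0.37, adjusted p = 1.63e-06). Olfr1018 (MOR260), beside it on the chromosome, was 3.04-fold and 4.47-fold lower (-1.60 ± 0.39 and -2.16 ± 0.39). Olfr1137 had -2.84 ± 0.29 in odor pools, where it was at least 3.33-fold lower, and -2.33 ± 0.29 in vehicle pools. Olfr1076 (MOR189) was called lower in both (-1.53 ± 0.50 and -2.52 ± 0.50), but was above the floor on 1 of 16 arrays, its odor groups overlapped, and its vehicle difference was -0.16 with arrays raised to the floor (adjusted p = 0.711). Its call in odor pools was lost without odor replicate 1, 2 or 4 (adjusted p = 0.216, 0.107 and 0.314 by limma) and without vehicle replicate 1, 2 or 3 (0.0553, 0.0506 and 0.0679).

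**Figure D3:**
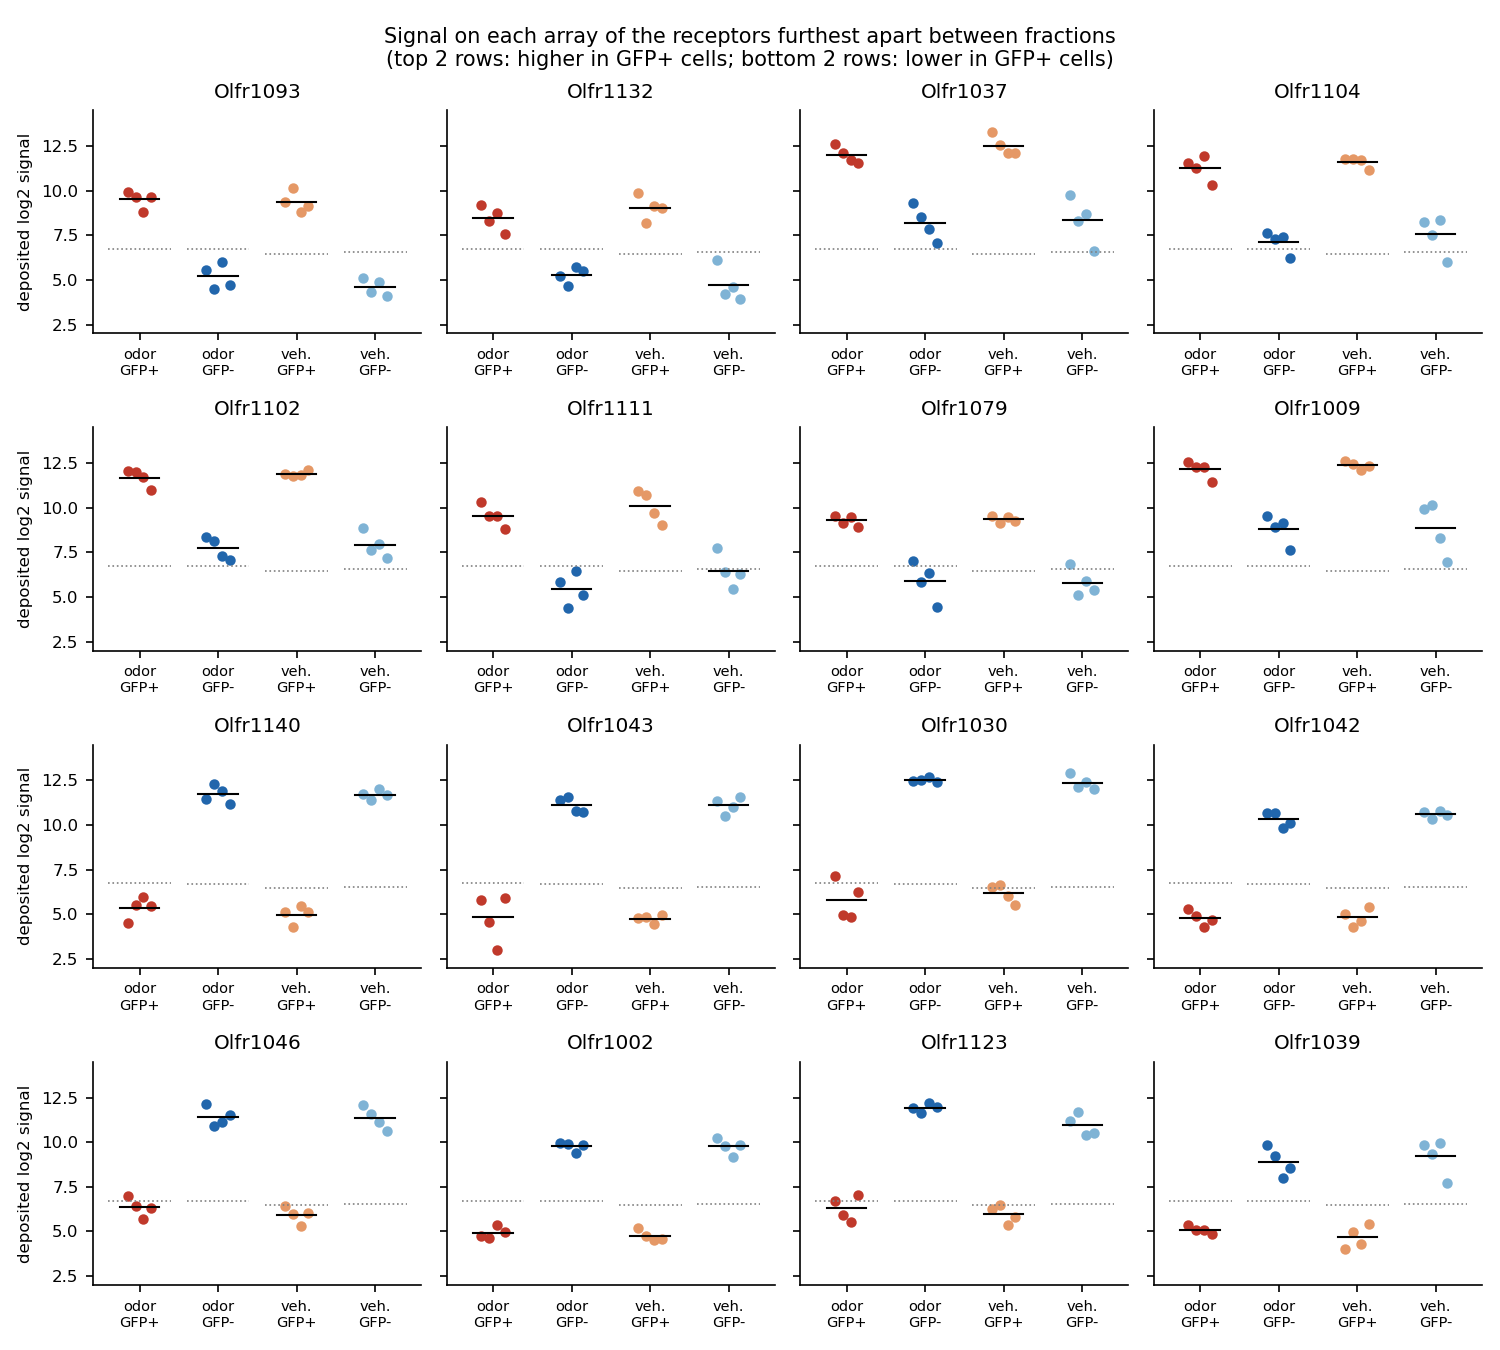
Deposited log2 signals (y axis) are shown for every array of odor GFP+, odor GFP-, vehicle GFP+ and vehicle GFP- samples (x axis), for 8 receptors with the most positive and 8 with the most negative difference in vehicle pools. Bars are group means and dotted lines the mean background floor of each group; Olfr1140, Olfr1043, Olfr1042, Olfr1002 and Olfr1039 lie under it on all 8 GFP+ arrays.

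Several families held receptors of both directions. The 98 receptors fall into 28 MOR families, with 7 receptors listed under several names, and 8 families with 5 or more receptors hold 54 of them. In MOR185, Olfr1044, Olfr1045, Olfr1057 and Olfr1062 were higher and Olfr1039, Olfr1042 and Olfr1043 were lower in both treatments, while Olfr1040 was under background throughout. Olfr1043 was at 5.80, 4.59, 2.98 and 5.92 in odor GFP+ samples, against 11.39, 11.55, 10.77 and 10.72 in odor GFP- samples. Olfr1044, which follows it on the chromosome, was at 11.05, 11.26, 10.67 and 9.67 in odor GFP+ samples, against 9.51, 9.10, 7.85 and 8.38 in odor GFP- samples. These neighbours of the same family thus had differences of -6.28 ± 0.46 and 1.95 ± 0.36 in odor pools, and -6.34 ± 0.46 and 1.87 ± 0.36 in vehicle pools (SE, n = 4; limma, adjusted p up to 0.00108), and against the floor Olfr1043 was at least 20.8-fold and 24.9-fold lower. Olfr1042 was at least 12.1-fold and 17.5-fold lower, Olfr1039 was at least 4.49-fold and 6.79-fold lower, and Olfr1045 gave 2.90 ± 0.41 and 2.81 ± 0.41.

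MOR179 was the one family of this size with every member called in vehicle pools. Of its 6 receptors, 5 were higher in odor and 6 in vehicle pools and 0 were lower. Olfr1086 was the exception in odor pools (0.30 ± 0.37, adjusted p = 0.656 by limma), and Olfr1095 was under background on all 16 arrays (1.13 ± 0.23 and 0.81 ± 0.23). With arrays centred on the receptor median 4 of 6 were higher in both treatments, and neither Olfr1086 nor Olfr1095 was among them. With arrays raised to the floor it was 3 in odor and 4 in vehicle pools, and the Olfr1095 difference in vehicle pools became -0.10. With all its arrays under the floor, that value is the difference between floors alone. In vehicle pools Olfr1086 lost its call without replicate 1 or 3 (adjusted p = 0.0538 and 0.106 by limma) and Olfr1095 without replicate 1, 2 or 3 (0.118, 0.0868 and 0.0504).

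MOR264, with 12 receptors, had 7 higher and 2 lower in odor pools and 6 and 2 in vehicle pools; the lower ones were Olfr1118 and Olfr1123. Without vehicle replicate 2 the vehicle count of higher receptors was 3. MOR177 had 3 higher and 1 lower of 6 in both treatments, with Olfr1132 and Olfr1140 at its ends. MOR175 had 2 higher and 1 lower of 5 in odor pools, and 1 and 1 in vehicle pools. Its odor count of higher receptors was 1 without odor replicate 1, 2 or 4, and its vehicle count was 2 without vehicle replicate 4. MOR213 had 3 of 6 higher in both, among them Olfr1016, which was 4.72-fold and 4.29-fold higher. MOR203 had 2 of 6 higher in odor and 4 of 6 in vehicle pools, and with each array centred on its median all 6 in both. Its Olfr987 and Olfr988 lie side by side and had nearly the same values, with differences of 0.61 ± 0.22 and 0.67 ± 0.25 in odor pools, beside 1.11 ± 0.22 and 1.09 ± 0.25 in vehicle pools. The probe sequences were not used here, so cross-hybridisation between such close genes was not tested.

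MOR188 was the family of this size with no call in either direction in either treatment. Its 5 receptors had differences between -1.21 and 1.51 in odor pools and between -1.17 and 1.49 in vehicle pools. Olfr1087 of this family was above background on all 16 arrays, with differences of 0.33 ± 0.23 and 0.20 ± 0.23 (adjusted p = 0.384 and 0.614 by limma). Olfr1061 was under background on all of them. Olfr1054 had the most positive values (1.51 ± 0.55 and 1.49 ± 0.55, adjusted p = 0.0761 and 0.0776), and it was called higher when the pool was a block (adjusted p = 0.0309 and 0.0322 as a random term). Without vehicle replicate 1 the family had 1 receptor higher and 1 lower in vehicle pools, and 1 higher in odor pools.

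**Figure D4:**
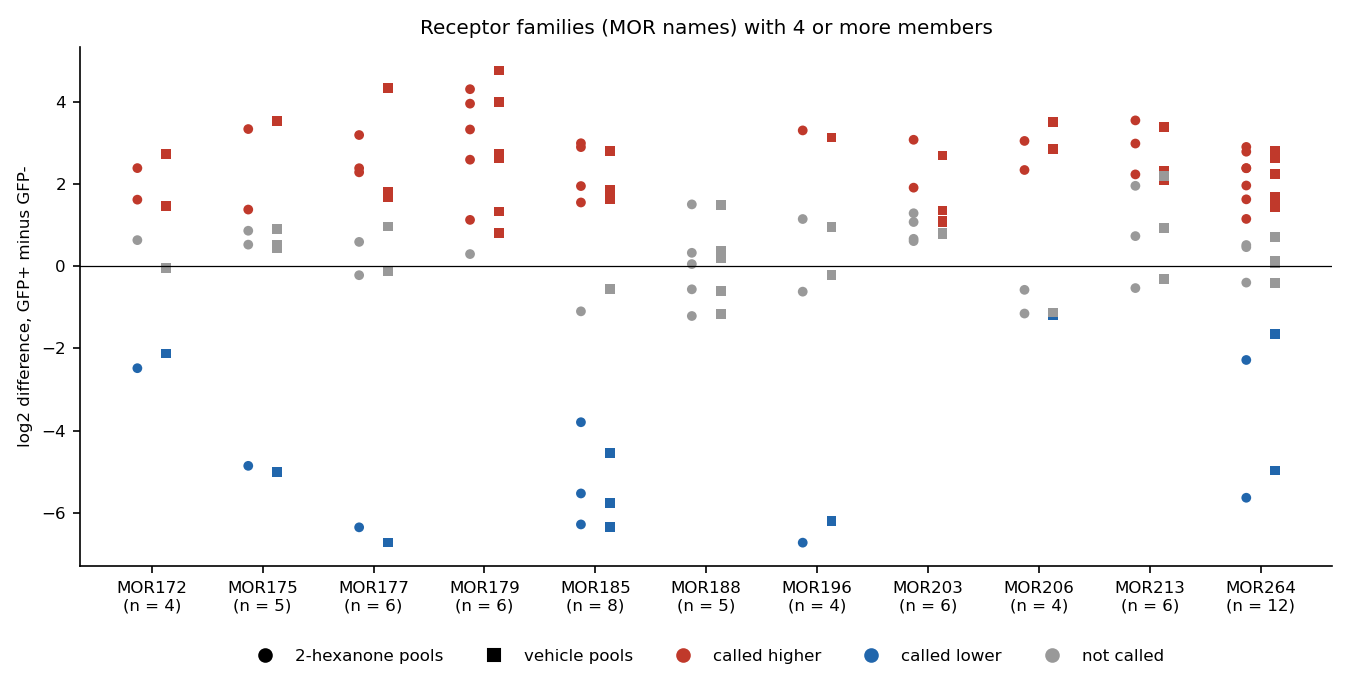
Each point is a receptor's log2 difference of GFP+ minus GFP- cells (y axis), grouped by MOR family (x axis, families with 4 or more members); circles are 2-hexanone pools and squares vehicle pools. Red points were called higher, blue lower and grey not called. MOR185 holds 4 red and 3 blue receptors in each treatment, and MOR188 none of either.

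Receptors called higher and receptors called lower lay mixed along the chromosome. The longest run of receptors called higher had 7 members in each treatment, Olfr1099 to Olfr1106, and the longest run called lower had 2, which were Olfr1018 with Olfr1019 and Olfr1042 with Olfr1043. Among 97 pairs of neighbours, 13 held a receptor called higher next to one called lower, in odor as in vehicle pools. Runs and pairs were not counted for a random order of the same calls, so they do not show an effect of position. Across these pairs, in which most genes take part more than once, the differences of neighbours had a Pearson r of 0.08 and a Spearman rho of 0.10 in odor pools, and 0.11 and 0.13 in vehicle pools. Between Olfr1037 and Olfr1046, 8 receptors in order were higher, lower, not called, lower, lower, higher, higher and lower in both treatments.

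The rule by mean level added Olfr1034 and Olfr1080 (MOR192) at the high end, both above background on all 16 arrays. Olfr1034 averaged 12.26 ± 0.84 in odor GFP+ and 9.43 ± 0.65 in odor GFP- samples, and 12.80 ± 0.44 in vehicle GFP+ and 9.75 ± 0.85 in vehicle GFP- samples (SD, n = 4 each). It was 7.16-fold higher in GFP+ cells in odor and 8.32-fold in vehicle pools (adjusted p = 0.000105 and 4.62e-05 by limma), and Olfr1080 was 6.66-fold and 6.34-fold higher (4.87e-06 and 6.73e-06). At the low end Olfr1023 (MOR196) was under the floor on all 16 arrays and was not called.

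Not every receptor could be followed by its level. Above the floor on all 16 arrays were 33 of the 98, 13 were under it on every array, and 52 were above it on some. With the stricter 95th percentile of the negative control rows as floor, only 5 were above it on all arrays. Olfr1058 and Olfr1128 are examples of receptors under the floor throughout, at group means of 3.30 to 4.27 and 3.27 to 4.08. For them neither the presence nor a change of the transcript could be measured.

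The comparison of odor with vehicle asks which receptors differed between mice that inhaled 2-hexanone and mice that inhaled air. None of the 98 was called in GFP+ cells (0.00901% of all probe sets were, 2 of 22206), none in GFP- cells (0% of all probe sets), and none for the change of the sort difference (0.00901%), by limma at a Benjamini-Hochberg adjusted p below 0.05. At an unadjusted p below 0.05 there were 7 in GFP+ cells (7.14%, against 3.91% of all probe sets), 7 in GFP- cells (7.14%, against 2.46%) and 1 for the change (1.02%, against 2.93%). Over all 1080 receptors these shares were 7.87%, 5.37% and 3.8%. The median difference over the 98 was -0.07 in GFP+ and -0.08 in GFP- cells, beside 0.0032 and 0.00024 over all probe sets, and the median standard error of a difference was 0.37. A difference of the size of this error was not detectable with these arrays. No member was called under any other setting either, and the count at the unadjusted level ran from 4 to 14 in GFP+ and from 5 to 13 in GFP- cells.

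Olfr1087 had the lowest p in GFP+ cells. It was at 8.67, 8.61, 9.34 and 9.38 in odor GFP+ samples, against 8.05, 8.33, 8.71 and 7.91 in vehicle GFP+ samples. In GFP- cells it was at 8.65, 8.60, 8.64 and 8.78 in odor, against 7.99, 7.73, 8.45 and 8.04 in vehicle samples. The GFP+ groups overlapped and the GFP- groups did not. The differences were 0.75 ± 0.23 in GFP+ (unadjusted p = 0.00393, adjusted p = 0.9999 by limma) and 0.62 ± 0.23 in GFP- cells (unadjusted p = 0.0134, adjusted p = 0.999998).

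The other receptors of lowest p were not called either. In GFP+ cells Olfr1086 had a difference of -1.02 ± 0.37, Olfr1019 of -1.001 ± 0.37, Olfr1126 of 1.12 ± 0.46 and Olfr1137 of -0.68 ± 0.29 (unadjusted p = 0.0120, 0.0156, 0.0262 and 0.0280 by limma). Olfr1126 (MOR264) was the one of the 98 whose GFP+ groups did not overlap, at 10.63, 9.86, 9.93 and 10.00 in odor against 9.41, 9.85, 7.95 and 8.71 in vehicle samples, with the lowest odor array close to the highest vehicle array. The share of all probe sets without overlap was not counted, so this does not set Olfr1126 apart. In GFP- cells Olfr1084 had 0.70 ± 0.22, Olfr1123 had 0.98 ± 0.34, Olfr1100 had 0.80 ± 0.28 and Olfr1101 had -0.87 ± 0.31. Olfr1084 and Olfr1100 were under the floor on all 8 of those arrays and Olfr1101 on all but 1. For the change of the sort difference, Olfr992 (MOR203) stood first at 1.12 ± 0.49 (unadjusted p = 0.0364, adjusted p = 0.9995 by limma). Its sort difference was 1.91 ± 0.35 in odor and 0.80 ± 0.35 in vehicle pools, and its 8 GFP- arrays were under the floor.

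**Figure D5:**
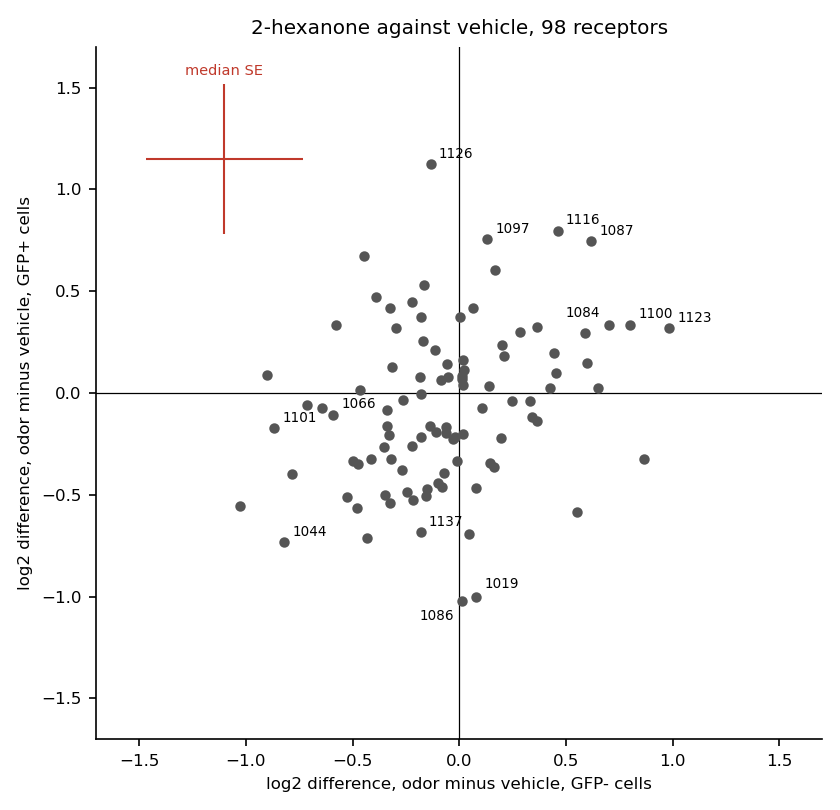
Each of the 98 receptors is placed by its log2 difference of odor minus vehicle in GFP- cells (x axis) and in GFP+ cells (y axis); the cross at the upper left is the median standard error (0.37), and numbers name receptors with an unadjusted p below 0.05 in either fraction. The points scatter around 0 in both fractions, and none was called after adjustment.

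Genes that act with the receptors were looked at between the fractions as well. The list, chosen with earlier results of these data known, held 13 measured genes of transduction, of which GFP+ cells had 3 higher and 1 lower in odor pools, and 4 higher and 1 lower in vehicle pools. Of all probe sets, 5.29% were higher and 9.56% lower in odor pools and 5.83% and 9.86% in vehicle pools. The mean signal of the 13 genes lay between 14.90 and 15.51 on every array, on a scale whose highest value was 19.81. Ano2, the calcium-activated chloride channel of the cilia, had 0.68 ± 0.18 in odor and 0.64 ± 0.18 in vehicle pools. The phosphodiesterase Pde1c had 1.10 ± 0.18 and 0.94 ± 0.18. The receptor kinase gene Grk3 was lower (-1.19 ± 0.26 and -1.26 ± 0.26), with both fractions under the floor. None of 3 genes of receptor transport (Rtp1, Rtp2 and Reep1) and none of 9 genes of receptor choice, such as Lhx2, Ldb1 and Ebf1, was called in either treatment.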

How the data were processed

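RNA of GFP+ and GFP- cells from 8 pools of 3 mice (50 to 100 ng per sample, per the labels' protocols) was measured on 16 Clariom S arrays. Per the submitters' processing notes, the authors used Affymetrix Expression Console, and the deposited values are on a log2 scale. The program's version, the way probes were summarised and the build behind the annotation were not given in the sources used here. Of 28846 rows, 6640 controls were left out and 22206 were tested. Symbols came from the platform annotation, and all 98 receptors matched the RefSeq gene table of GRCm38.p6, which gave MOR names and gene order. The members and the gene lists were chosen with earlier results of these data known.

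Sample titles gave the groups and replicate numbers. The fits were made in R 4.3.3 with limma 3.58.1 (lmFit, then eBayes, with 4 group means and 12 residual degrees of freedom), with Benjamini-Hochberg adjustment over all 22206 probe sets and calls at an adjusted p below 0.05. The script was checked on simulated data. Each array's floor was the highest of 23 antigenomic bins. Where all arrays of the dimmer group lay under it, the fold is written as "at least" and sets the mean of the brighter group against the dimmer one with its arrays raised to their floors. Samples are pools of mice, so p-values measure the spread between pools, and 4 arrays per group limit the precision.

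The receptors named were, in each sort comparison, the 10 highest and 10 lowest called; in the others, the 5 of lowest p; and 5 at each end of the mean signal. Families with 5 or more members were given by counts, and receptors named in families, on the chromosome or for calls in a single treatment were chosen after their values were seen. The same rule chose the promoters of Olfr1093, Olfr1140 and Olfr1087, the last without a window in the table used; those of Olfr1037 and Olfr1030 were added after their values were seen. Proteins were not used here.

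Per the labels both fractions of a pool came from the same mice. Within odor pools 1 to 4 the deviations of both fractions from their group means had correlations of 0.425, 0.0749, 0.161 and 0.109, and within vehicle pools 1 to 4 of 0.352, 0.0136, 0.0516 and 0.0837. Odor and vehicle samples of replicate 1, from different mice, correlated at 0.419 in GFP+ and 0.354 in GFP- cells. The source of these correlations was not tested. Alternatives were quantile normalization over all arrays or within fractions, centring on array or receptor medians, a filter on the dimmest 20% or 40% of probe sets, a trended robust prior, array weights, only the arrays compared, the pool or replicate number as a block, arrays raised to the floor, each pool left out, and both replicate 1 pools left out. Centring on receptors, raising to the floor and leaving out both replicate 1 pools were chosen after seeing the data. Plots used Python 3.11.15 and matplotlib 3.10.9.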

Additional observations from a re-analysis of the deposited data

Results flagged for a closer look

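A gap test within groups of 4 arrays (Dixon's ratio above its 95% critical value) marked 5 of 152 groups of the 38 named receptors, or 3.29%, and chance alone marks about 1 in 20. Olfr1002 had 9.40 in odor GFP- replicate 3, below the others at 9.87 to 9.95. Olfr1104 had 11.13 in vehicle GFP+ replicate 4, below the others at 11.71 to 11.79. The remaining 3 lie under the background floor. Olfr1058 had 4.88 in vehicle GFP- replicate 1, above the others at 2.90 to 2.94. Olfr1128 had 2.26 in odor GFP- replicate 2, below the others at 3.53 to 3.73, and 4.46 in vehicle GFP- replicate 3, above the others at 2.93 to 3.16.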

How the results depend on the processing

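With arrays raised to the floor, 5 called differences changed sign, those of Olfr993, Olfr1024, Olfr1095 (-0.10 each) and Olfr1113 (-0.087) in vehicle pools and that of Olfr1076 (0.015) in odor pools. No other called difference did so under any alternative run. Every array of Olfr993, Olfr1024 and Olfr1095 in vehicle and of Olfr1076 in odor pools lay under its floor. Their raised differences are therefore those between floors alone and give no direction for the receptor. Olfr1113 was above the floor on 1 of 4 vehicle GFP+ and 0 of 4 vehicle GFP- arrays. The counts of calls over all 98 receptors stayed within 1.5 times their values above. In odor pools the 49 higher and 14 lower ranged from 38 to 65 and from 13 to 20, and in vehicle pools the 52 and 15 ranged from 43 to 64 and from 14 to 16. Leaving out 1 pool at a time gave 44 to 50 higher and 13 to 15 lower in odor, and 45 to 52 and 14 to 16 in vehicle pools. Across all 21 settings 36 of the 49 higher and 12 of the 14 lower receptors in odor pools, and 36 of 52 and 12 of 15 in vehicle pools, kept their calls wherever they were tested. Raising arrays to the floor ended 13 odor and 11 vehicle calls, and centring on the receptor median 5 and 9. Counts within families moved further. Higher receptors ranged from 1 to 6 in odor and from 2 to 6 in vehicle pools for MOR203, from 1 to 4 and 1 to 3 for MOR175, from 5 to 8 and 3 to 7 for MOR264, from 3 to 5 and 4 to 6 for MOR179, from 3 to 5 in both for MOR213 and from 0 to 2 in both for MOR188, which also had 0 to 1 lower. In all, 7 receptors lost their odor call and 12 their vehicle call without a single pool.

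Beside those named earlier, Olfr1024 was not called in odor pools once any odor pool was left out (adjusted p = 0.0876 to 0.110 by limma) and lost its vehicle call without vehicle replicate 1, 3 or 4 (0.0936, 0.141 and 0.109). Olfr1065 lost its odor call when any 1 odor pool was left out (0.0524 to 0.146) or without vehicle replicate 2 or 4 (0.0700 and 0.0622), and its vehicle call without vehicle replicate 1, 2 or 4 (0.107, 0.0875 and 0.127). Olfr1113 lost its odor call when any 1 pool other than odor replicate 3 was left out (0.0502 to 0.267) and its vehicle call without vehicle replicate 2 (0.0805). Olfr1115 lost its odor call without odor replicate 3 or 4 (0.0913 and 0.0585) and its vehicle call without vehicle replicate 3 (0.227). The vehicle calls of Olfr1120 and Olfr1126 were lost without vehicle replicate 2 (0.0637 and 0.195) or 4 (0.0524 and 0.0628).

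A random replicate block for the pool gave 54 higher and 16 lower receptors in odor pools and 56 and 16 in vehicle pools. A fixed block gave 55 and 16, and 56 and 16. Neither lost a call, and the random block added 7 in odor and 5 in vehicle pools. Odor and vehicle samples of the same number came from different mice, and the labels used here name no other link between them. Their deviations correlated at 0.419, 0.0996, 0.214 and 0.0492 in GFP+ and 0.354, 0.0841, 0.0310 and 0.214 in GFP- samples, and with the replicate number as a block 0 receptors were called and 12 and 11 had an unadjusted p below 0.05. Among receptors named by rank of difference, p or mean signal, Olfr988 and Olfr1086 lost their vehicle calls when arrays were centred on the receptor median. Their differences were then 0.81 and 1.06 (adjusted p = 0.0797 and 0.0733 by limma). The cause was not tested. No receptor had more than 1 probe set, so another probe set per gene could not be tried. The signal over background limits the result for the 13 receptors under the floor on all 16 arrays.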
